A study of Homo sapiens with 9 samples.

Results

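Endothelial identity genes are the transcription factors, receptors, junction proteins and secreted proteins by which an endothelial cell is told from other cells. The 38 genes followed here were taken by symbol from the count table of 29740 genes, and all 38 had a row. They comprise 9 lineage transcription factors, 4 genes of the angiopoietin-Tie system, 5 genes of junctions and adhesion, 11 genes for surface receptors, sialomucins and caveolar proteins, 5 genes for secreted and matrix proteins and 4 genes of lymphatic and venous fate. The rule used symbols only, but the members were chosen with earlier results of these data known.

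The cells sequenced were HMEC-1, human dermal microvascular endothelial cells that were immortalised as a line with the SV40 large T antigen. The cells were left untreated (CTRL) or were treated with 50 µM trimethylamine-N-oxide (TMAO), a metabolite that gut bacteria help to make from dietary choline and carnitine, for 24H or 48H, with 3 libraries in each of the 3 groups. Treatment was in medium of reduced serum. The labels give the controls no time. The study's text says that controls of both time-points were combined for sequencing. Its stated ground is that their levels of reactive oxygen species and their viability were comparable, with those data not shown. It does not say how many controls came from each time. Time in culture and TMAO therefore cannot be told apart at either time-point. The labels do not say that the 3 libraries of a group came from separate cultures, so p-values measure the spread between these libraries. HMEC-1 is 1 immortalised line, and results from it describe that line.

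Endothelial identity is held by a small set of transcription factors of the ETS, GATA and SCL/TAL1 families, which bind together at the regulatory regions of endothelial genes and keep them active. The Tie receptors and their angiopoietin ligands control vessel stability, VE-cadherin and claudin-5 seal the junctions between cells, and von Willebrand factor is stored in the Weibel-Palade bodies for release in haemostasis. Lymphatic endothelium is set apart from blood endothelium by PROX1, which is required for its fate, and by LYVE1 and podoplanin.

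Library totals ran from 25205756 to 36927373 estimated counts. TMAO 24H replicate 1 stood apart, with ribosomal RNA (6 genes) taking 31.52% of its counts where it took 1.637% to 7.46% elsewhere, and it was kept in the fit with its scaling factor of 0.7356. CTRL replicate 3, which had the 7.46%, was the lowest of the 3 controls in 23 of the 36 identity genes that passed the filter on low counts. TMAO 24H replicate 2 was the lowest of its group in 22 of 36. Counts without these libraries are given beside the results. Levels below are CPM, each count over its library total per 1000000 counts, after scaling by TMM, a factor that corrects for library composition, and are given for replicates 1, 2 and 3 of a group in that order.

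By CPM most of the identity genes were read at a clear level in HMEC-1, and 4 of 38 averaged below 1 CPM. Over all 9 libraries 18 genes averaged at least 100 CPM, 16 averaged between 1 and 100 CPM, and ANGPT1 and LYVE1 passed the filter below 1 CPM. The remaining 2, PROX1 and APLNR, had counts but failed the filter. No identity gene was at 0 in all 9 libraries.

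**Figure D1:**
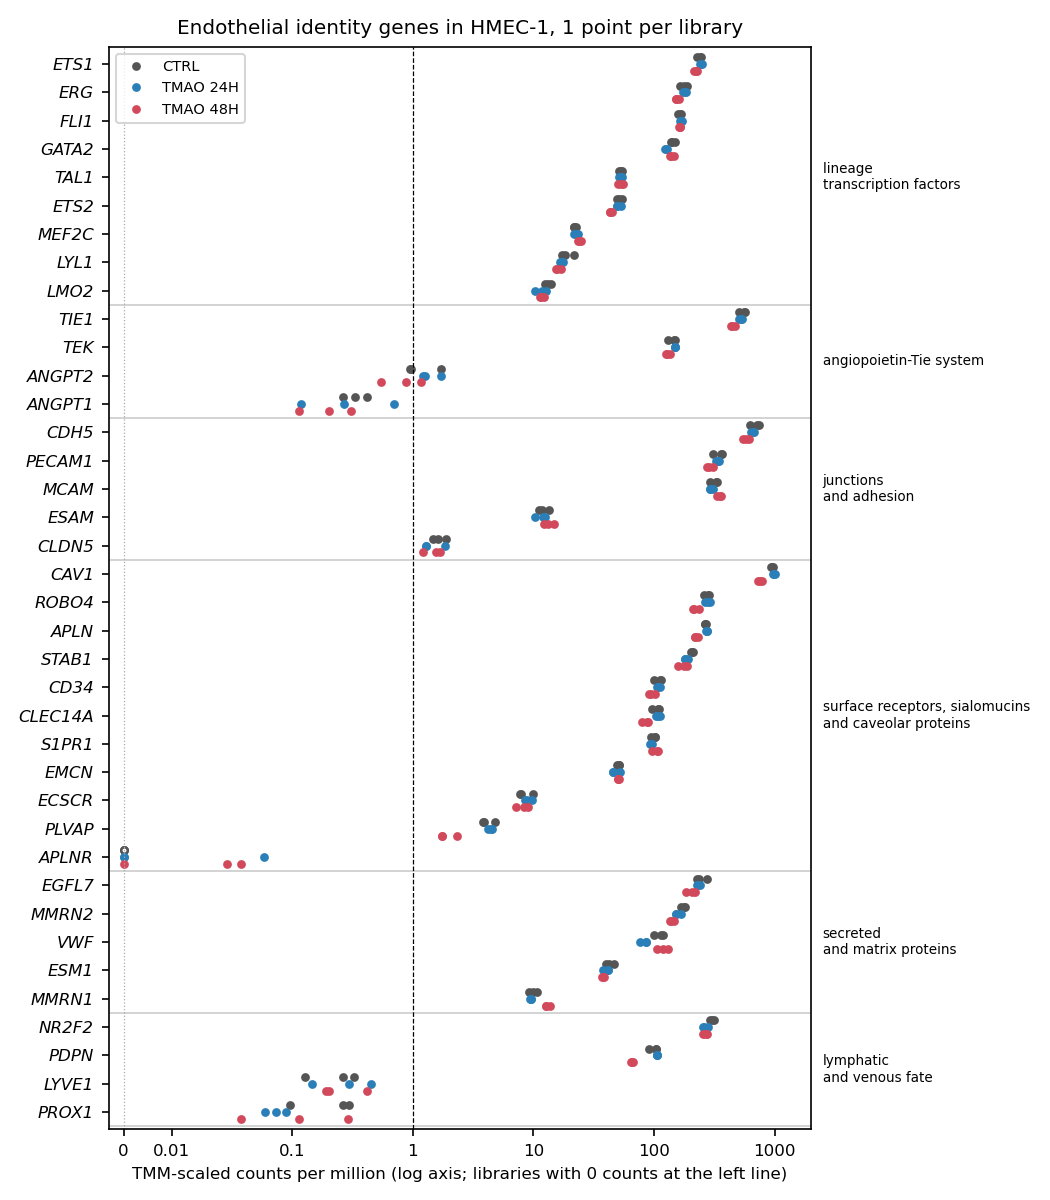
Level of the 38 identity genes in every library. The horizontal axis is TMM-scaled CPM, drawn as a log axis, each point is 1 library, colours mark CTRL, TMAO 24H and TMAO 48H (3 libraries each), rows are grouped by role, and points on the dotted line at the left have 0 counts. Within most rows the 9 points lie close together, and 4 genes at the low end, ANGPT1, APLNR, LYVE1 and PROX1, lie left of the dashed line at 1 CPM.

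PROX1, the master regulator of lymphatic fate, had 41 counts in all, spread over 9 libraries. Its summed level was 0.149 CPM, with an exact 95% Poisson interval of 0.107 to 0.203 that covers counting error only. The controls held 0.0960, 0.295 and 0.265 CPM, the 24H libraries 0.0737, 0.0596 and 0.0883 CPM and the 48H libraries 0.115, 0.290 and 0.0378 CPM. A library held 1 to 10 counts, where 3 counts are worth 0.0869 to 0.115 CPM. In CPM the 24H libraries lay below all 3 controls. In counts, at 2, 2 and 3 against 3, 9 and 8, the highest 24H library equalled the lowest control. The 48H libraries overlapped both groups. The gene failed the filter, so these differences were not tested in the fit. APLNR, the receptor of the peptide apelin, had 4 counts in 3 libraries. All 3 controls were at 0, which allows up to 0.096 to 0.0994 CPM in a library. The summed level was 0.0146 CPM, with an exact 95% Poisson interval of 0.00397 to 0.0373.

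LYVE1, the hyaluronan receptor of lymphatic endothelium, was at 0.128, 0.327 and 0.265 CPM in CTRL, 0.295, 0.447 and 0.147 CPM at 24H, and 0.191, 0.203 and 0.416 CPM at 48H. ANGPT1, the Tie2 ligand that mural cells usually supply, was at 0.416, 0.262 and 0.331 CPM in CTRL, 0.700, 0.268 and 0.118 CPM at 24H and 0.306, 0.203 and 0.113 CPM at 48H. For both genes all 3 groups overlapped. CLDN5 and ANGPT2 were read at a little over 1 CPM. CLDN5, which encodes the main tight junction claudin of endothelium, was at 1.89, 1.60 and 1.46 CPM in CTRL, 1.84, 1.28 and 1.30 CPM at 24H and 1.68, 1.56 and 1.21 CPM at 48H. ANGPT2, a Weibel-Palade ligand of Tie2, ranged from 0.550 to 1.73 CPM over the 9 libraries.

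To compare levels between genes, counts were divided by transcript length and scaled to a common total per library (TPM). In the controls PECAM1 (CD31, an adhesion molecule of the cell border) had the highest length-scaled level, 719 ± 65.6 TPM (SD, n = 3). CAV1, the structural protein of caveolae, followed at 581 ± 15.3 TPM and CDH5 (VE-cadherin) at 580.5 ± 51.5 TPM, and these neighbours did not differ beyond their spread. TIE1 was at 324 ± 17.6 TPM, MMRN2 at 275 ± 11.5 TPM, EGFL7 at 240.4 ± 23.8 TPM and NR2F2 at 205 ± 7.96 TPM. TIE1 stood above MMRN2 by more than the spread, MMRN2 and EGFL7 differed by about their summed SDs, and 13 of the 38 genes reached 100 TPM. With the longest annotated transcript in place of the median, PECAM1 was at 162 TPM and 9th in rank, while CAV1 was 1st at 952 TPM, CDH5 2nd at 544 TPM and TIE1 3rd at 449.7 TPM. MMRN2 was then at 129 TPM, below EGFL7 at 371 TPM, and ERG, FLI1, S1PR1 and CLEC14A also reached 100 TPM. The order of the genes and the number at 100 TPM therefore depend on the length used.

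Within the lineage transcription factors, ETS1 had the highest length-scaled level in CTRL, 127 ± 4.54 TPM, and LMO2 the lowest, 9.94 ± 0.533 TPM. With the longest transcript MEF2C was the lowest, at 9.37 TPM, and LMO2 was at 18.5 TPM. VWF, the textbook endothelial marker, was moderate at 18.8 ± 1.57 TPM. The lowest tested genes of the surface and secreted groups were PLVAP at 10.1 ± 1.23 TPM and MMRN1 at 3.00 ± 0.198 TPM.

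The label of an endothelial cell was checked against other cell types. PTPRC, which marks leukocytes, averaged 0.0281 CPM, SPI1 0.00425 CPM, and CD3E had no count in any library. The leukocyte list summed to 19.6 to 22.4 CPM in CTRL, 21.6 to 23.0 CPM at 24H and 22.2 to 23.7 CPM at 48H, led by CD68 and CD14, with 2 of 10 genes at 1 CPM or more. The melanocyte list summed to 1.44 to 2.24 CPM over the 9 libraries, led by PMEL and MLANA. The fibroblast, mural and epithelial lists were read at higher levels, and their values stand beside the 48H results below.

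At 24H of TMAO no identity gene passed the test. Of the 36 tested, 15 had a fitted fold change above 1 and 21 below 1, and the median log2 fold change was -0.03 against -0.00042 over all 14740 genes tested. In edgeR's quasi-likelihood test 0 of 36 had a Benjamini-Hochberg adjusted p under 0.05, where 0.0950% of all genes tested passed, all of them lower, and 0 passed with at least 1.4-fold added, where 0.0475% did. At an unadjusted p under 0.05, 5 identity genes were lower (VWF, GATA2, NR2F2, MMRN2 and STAB1) against 4.47% of all genes, and 0 higher against 2.77%. DESeq2 called 2 (VWF and NR2F2), both lower, where 0.421% of all genes were lower. The 3 libraries of the groups did not overlap in 2 genes that were higher, against a background of 6.73%, and in 5 that were lower, against 7.52%. The edgeR count was also 0 without TMAO 24H replicate 1, without TMAO 24H replicate 2 and without CTRL replicate 3. In these fits 0.0537%, 0% and 0.0604% of all genes were lower.

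VWF had the largest fitted 24H difference of the 36. It was at 118, 114 and 101 CPM in CTRL and at 86.1, 77.0 and 86.5 CPM at 24H, so that all 3 treated libraries lay below all 3 controls. The log2 fold change was -0.42 (SE 0.0769, 0.749-fold), with an edgeR adjusted p of 0.0822. Over the alternatives the adjusted p ran from 9.62e-05 with DESeq2 to 0.474 without CTRL replicate 2. At 48H VWF was at 106, 118 and 131 CPM, which overlapped the controls, with a log2 fold change of 0.09 (SE 0.0768, adjusted p 0.5).

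At 48H of TMAO 16 identity genes fell and 1 rose. The falls included receptors and structural proteins of the endothelial surface (PLVAP, CAV1, ROBO4, CLEC14A, STAB1 and CD34), the apelin peptide APLN, the junction proteins PECAM1 and CDH5, the receptor TIE1, the transcription factors ERG, ETS2 and NR2F2, the secreted proteins MMRN2 and EGFL7, and PDPN. MMRN1 rose. Most falls were small: the folds of the 16 ran from 0.468 to 0.886 with a median of 0.833.

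By edgeR's test at an adjusted p under 0.05, 17 of 36 identity genes passed where 10.4% of all 14740 genes tested did, and the 16 lower genes, 44.4% of those tested, stood against 5.29% lower among all genes. The 1 higher gene stood against 5.13%. Better read genes pass more often, so the background was also taken by level. Of the 30 identity genes at 10 CPM or more 15 fell, or 50%, against 7.09% of all genes at that level, and of the 18 at 100 CPM or more 12 fell, or 66.7%, against 10.3%. The shares set beside role groups and other lists below are over all genes and are not matched for level. With the threshold of at least 1.4-fold added, 2 genes passed, PLVAP and PDPN, both lower, where 1.80% of all genes passed and 0.916% were lower. The median log2 fold change of the 36 was -0.18 against 0.0040 over all genes, and 27 of 36 were below 0. The 3 libraries of 48H lay wholly below the 3 controls in 19 genes, against a background of 13.0%, and wholly above them in 3 (MMRN1, MCAM and MEF2C), against 14.7%. The genes are not independent of each other, and in bulk RNA fewer cells of a type and less RNA per cell cannot be told apart.

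**Figure D2:**
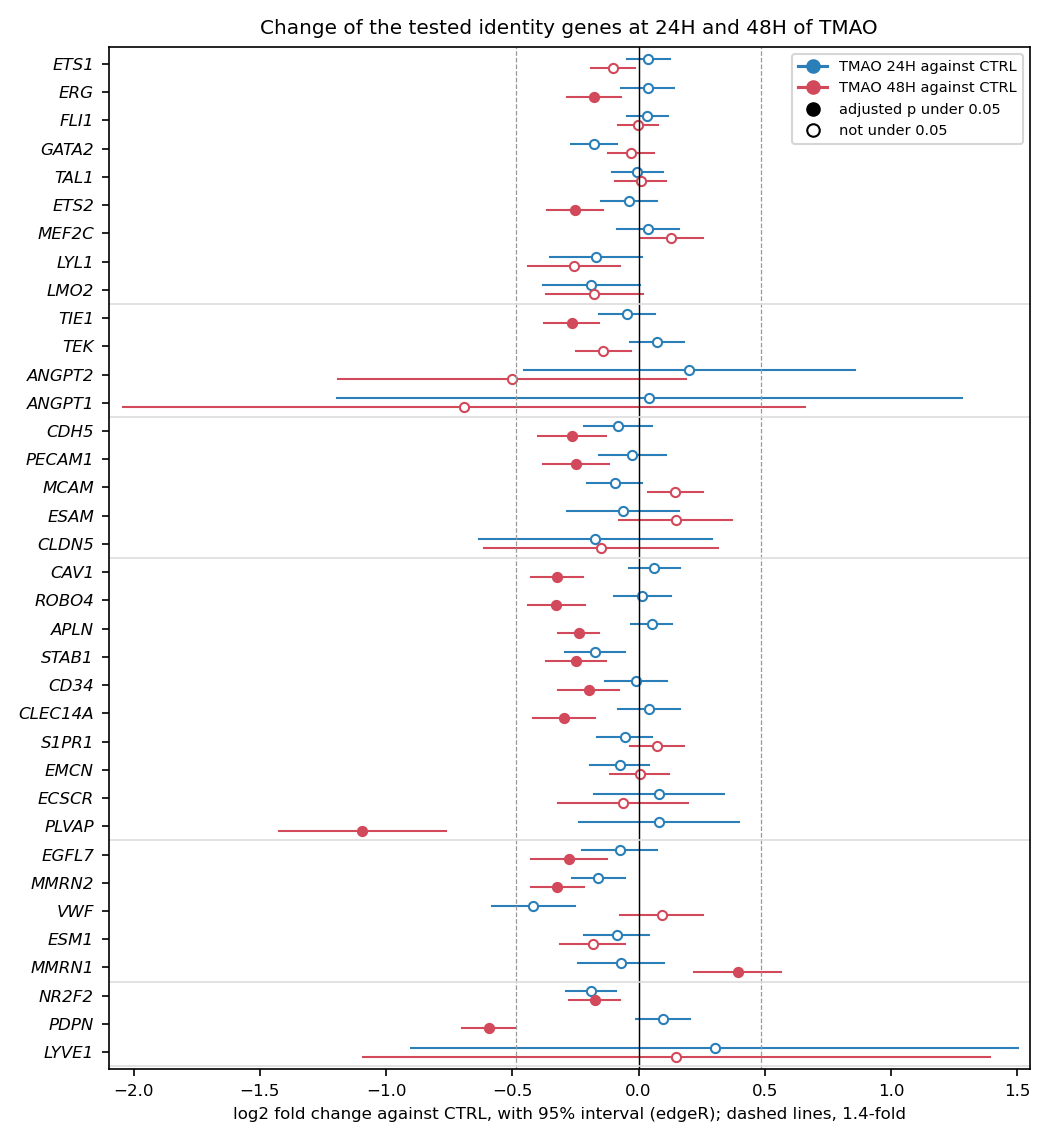
Log2 fold change of the 36 tested identity genes at 24H (blue) and 48H (red) against CTRL, with 95% intervals from edgeR (3 libraries per group); filled points have an adjusted p under 0.05 and dashed lines mark 1.4-fold. All 24H points are open, while 17 of the 48H points are filled, 16 of them left of 0, and PLVAP and PDPN are the filled points beyond 1.4-fold.

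Leaving out 1 library changed how many genes passed at 48H. The count of 17 fell to 11 without CTRL replicate 2 and to 11 without TMAO 48H replicate 2, and it was 18 without CTRL replicate 3. Calls over all genes moved too: the lower identity genes were 10, 10 and 17 in these fits, against 2.83%, 2.61% and 5.01% of all genes. The 11 genes left in both of the first cases were APLN, CAV1, CLEC14A, ETS2, MMRN1, MMRN2, PDPN, PLVAP, ROBO4, STAB1 and TIE1, and these passed under every alternative that was run. ERG, PECAM1, CDH5, CD34, EGFL7 and NR2F2 did not. Of 16 alternatives, CD34 lost its call in 7, ERG and NR2F2 in 6 each, PECAM1 and EGFL7 in 5 each and CDH5 in 4. Each kept its direction.

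Among the lineage transcription factors, 2 of 9 fell at 48H (ERG and ETS2), against 5.29% of all genes, and none rose, against 5.13%. Their median log2 fold change was -0.10. ERG, an ETS factor that maintains the endothelial programme, was at 186, 177 and 164 CPM in CTRL, 182, 176 and 183 CPM at 24H and 153, 151 and 162 CPM at 48H. The 48H libraries lay below all others, with a log2 fold change of -0.18 (SE 0.0491, adjusted p 0.0372). Only the highest 48H library and the lowest control, 162 and 164 CPM, came close. The 48H fall of ERG did not pass in 6 of 16 alternatives.

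ETS2, a related factor downstream of MAP kinase signalling, was at 54.6, 51.5 and 49.7 CPM in CTRL, 49.1, 49.1 and 53.5 CPM at 24H and 43.2, 44.6 and 43.0 CPM at 48H. It did not overlap with either other group at 48H, and its log2 fold change was -0.25 (SE 0.0514, adjusted p 0.00797). ETS1, the most read of the group per length, was at 245, 240.4 and 229 CPM in CTRL, 249, 239 and 245 CPM at 24H and 223, 227 and 216 CPM at 48H. Its 48H libraries were also the lowest 3, but the log2 fold change of -0.10 (SE 0.0401) did not pass, at an adjusted p of 0.129.

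FLI1, the closest relative of ERG, stayed between 159 and 172 CPM in all 9 libraries, with a 48H fold change of 0.998 and a 95% interval on the log2 scale of -0.08 to 0.08. TAL1, the SCL factor of blood and endothelial lineages, ranged from 50.6 to 54.9 CPM, with a 48H interval of -0.09 to 0.11. LMO2, the bridging partner of TAL1 and GATA factors, was at 12.4, 13.9 and 13.3 CPM in CTRL, 10.3, 11.7 and 12.7 CPM at 24H and 12.2, 11.4 and 11.5 CPM at 48H. Its 48H libraries lay just below the controls (log2 fold change -0.18, SE 0.0889, adjusted p 0.234). The other 3 factors, LYL1, GATA2 and MEF2C, had 48H adjusted p of 0.0692, 0.723 and 0.178.

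In the angiopoietin-Tie system the receptors were well read and the ligands were not. TIE1, the orphan receptor that pairs with Tie2, was at 553, 566 and 508 CPM in CTRL, 526, 509 and 542 CPM at 24H and 439, 443 and 473 CPM at 48H. All 48H libraries lay below the other 6, with a log2 fold change of -0.26 (SE 0.0507, adjusted p 0.0057). TEK, which encodes Tie2, was at 150.1, 146 and 131 CPM in CTRL, 149, 151 and 149.6 CPM at 24H and 128, 135 and 125 CPM at 48H. The 48H values overlapped the lowest control, and the log2 fold change of -0.14 (SE 0.0498) had an adjusted p of 0.0938. Of the 4 genes 1 passed at 48H, where 10.4% of all genes did. For ANGPT1 and ANGPT2 the 95% intervals, -2.04 to 0.66 and -1.19 to 0.19, were wide.

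Of the 5 junction and adhesion genes, 2 fell at 48H, against 5.29% of all genes. PECAM1 was at 365, 358 and 308 CPM in CTRL, 340.2, 326 and 346 CPM at 24H and 277, 284 and 307 CPM at 48H. The highest 48H library, 307 CPM, was just under the lowest control, 308 CPM, and the log2 fold change was -0.25 (SE 0.0612, adjusted p 0.0216). CDH5, the cadherin of the adherens junction, was at 747, 716 and 629.6 CPM in CTRL, 663, 637 and 678 CPM at 24H and 552, 580.4 and 613 CPM at 48H, and its log2 fold change of -0.26 (SE 0.0624) had an adjusted p of 0.0181. For both genes the control nearest to the 48H libraries was CTRL replicate 3.

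CLDN5, whose libraries are given above, overlapped among the groups (log2 fold change -0.15, 95% interval -0.61 to 0.32), a span in which a change of the size seen in CDH5 was not detectable at this depth. MCAM (CD146), an adhesion molecule of the endothelial border, went the other way: it was at 324, 330.0 and 291 CPM in CTRL, 291, 289 and 306 CPM at 24H and 336, 356 and 353 CPM at 48H. Its 48H libraries were the highest 3 of the 9, at a log2 fold change against CTRL of 0.15 (SE 0.0504) and an adjusted p of 0.0838. MCAM did pass at 48H with DESeq2 and with GC and length offsets. ESAM ranged from 10.3 to 14.9 CPM and did not pass (adjusted p 0.406).

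The surface receptors, sialomucins and caveolar proteins held 7 of the 16 falls, out of 10 tested, against 5.29% of all genes. None rose, against 5.13%. PLVAP, which forms the diaphragms of caveolae and fenestrae, showed the largest fall of all 36: it was at 3.84, 4.78 and 3.88 CPM in CTRL, 4.20, 4.44 and 4.56 CPM at 24H and 1.76, 2.32 and 1.74 CPM at 48H. The highest 48H library was thus well under the lowest of the other 6, with a log2 fold change of -1.10 (SE 0.153, 0.468-fold, adjusted p 0.000844). It was also among the less read genes of the list.

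CAV1 was at 969.7, 945 and 926 CPM in CTRL, 1017, 963 and 986 CPM at 24H and 783, 733 and 756 CPM at 48H, which left a wide gap between the 48H libraries and the other 6. Its log2 fold change was -0.32 (SE 0.0472, 0.8-fold, adjusted p 0.00109). ROBO4, a guidance receptor restricted largely to endothelium that stabilises vessels, was at 286, 281 and 260.3 CPM in CTRL, 280.3, 266 and 289 CPM at 24H and 211, 214 and 235 CPM at 48H. It fell without overlap, at a log2 fold change of -0.33 (SE 0.0520, adjusted p 0.00194).

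APLN, the apelin peptide, was at 267, 263 and 263 CPM in CTRL, 274, 272 and 276 CPM at 24H and 232, 220.1 and 220.1 CPM at 48H. Its 24H libraries lay above the controls and its 48H libraries below them, with a 48H log2 fold change of -0.24 (SE 0.0372, adjusted p 0.00171). CLEC14A, a C-type lectin receptor of sprouting endothelium that binds MMRN2, was at 107, 110.0 and 96.9 CPM in CTRL, 104, 108 and 112 CPM at 24H and 88.4, 79.4 and 88.1 CPM at 48H. The groups did not overlap at 48H, at a log2 fold change of -0.30 (SE 0.0566, adjusted p 0.0057).

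STAB1, a scavenger receptor of sinusoidal endothelium, was at 210.1, 208 and 203 CPM in CTRL, 179.6, 180.4 and 192 CPM at 24H and 159, 176 and 188 CPM at 48H. Both treated groups lay below the controls and overlapped each other, and the 48H log2 fold change was -0.25 (SE 0.0549, adjusted p 0.0122). CD34, a sialomucin of vascular and progenitor cells, was at 112, 115 and 101 CPM in CTRL, 108, 105 and 112 CPM at 24H and 93.6, 90.2 and 102 CPM at 48H. It overlapped CTRL in 1 library and passed narrowly, at a log2 fold change of -0.20 (SE 0.0566, adjusted p 0.0422), and it did not pass when TMAO 24H replicate 1 was left out of the fit (adjusted p 0.0534).

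The 3 other tested genes of this group did not pass. EMCN, the sialomucin endomucin, ranged from 45.3 to 52.1 CPM and S1PR1, the main endothelial receptor of sphingosine-1-phosphate, from 93.3 to 109 CPM, with 48H intervals of -0.11 to 0.12 and -0.03 to 0.18. ECSCR, a regulator of endothelial migration, ranged from 7.12 to 9.97 CPM; a second row of the table, a near-identical copy, held 1130 to 1520 counts per library, so its reads may be split between the rows. With both rows summed the 48H log2 fold change of ECSCR was -0.02 (SE 0.0452, adjusted p 0.829).

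**Figure D3:**
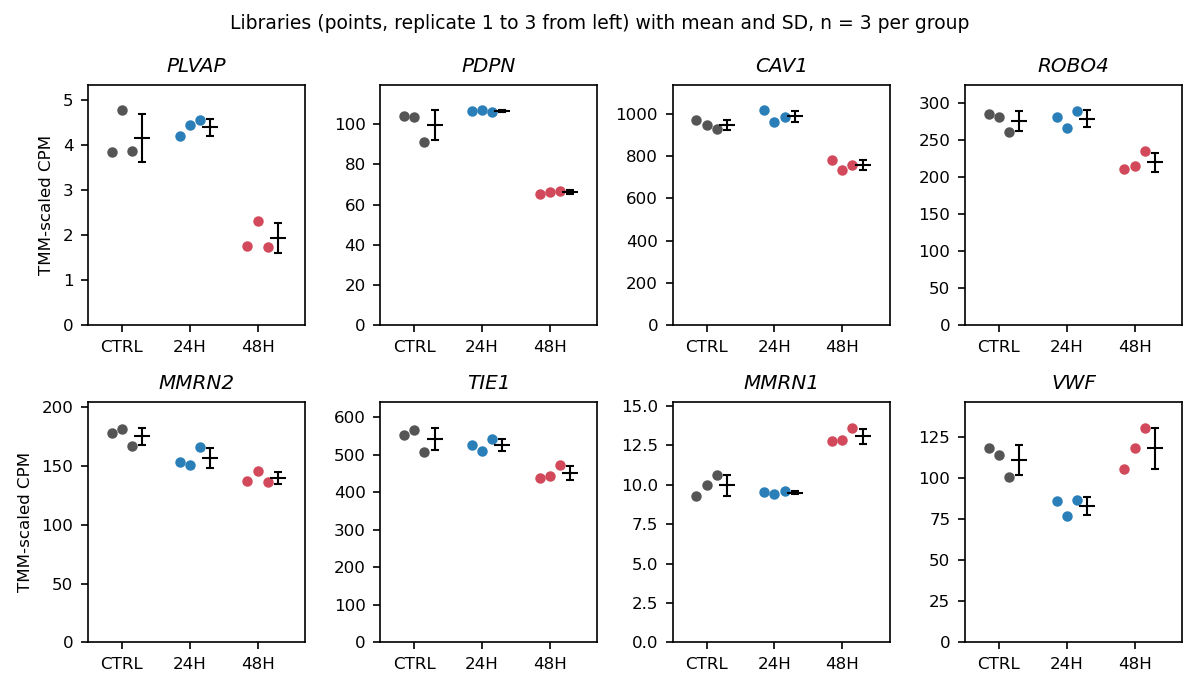
TMM-scaled CPM of 8 identity genes in the 9 libraries. Each panel has its own linear axis from 0, points are replicates 1 to 3 of CTRL, TMAO 24H and TMAO 48H from left to right, and bars give mean and SD (n = 3). In PLVAP, PDPN, CAV1, ROBO4, MMRN2 and TIE1 all 48H points lie under all control points, in MMRN1 they lie over them, and VWF is lowest at 24H.

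Secreted and matrix proteins moved in both directions. MMRN2 (multimerin-2), an endothelial extracellular matrix protein, was at 178, 181 and 167 CPM in CTRL, 153, 151 and 166 CPM at 24H and 138, 146 and 137 CPM at 48H. The 48H libraries were the lowest 3, at a log2 fold change of -0.32 (SE 0.0485, adjusted p 0.00129). Its relative MMRN1 (multimerin-1), a factor V binding protein stored in platelets and endothelium, was the only rise in the edgeR fit: it was at 9.28, 9.95 and 10.6 CPM in CTRL, 9.50, 9.39 and 9.57 CPM at 24H and 12.7, 12.8 and 13.6 CPM at 48H. The lowest 48H library lay above the highest of the other 6, and the log2 fold change was 0.39 (SE 0.0795, 1.31-fold, adjusted p 0.00794).

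EGFL7, an endothelial matrix protein whose gene also hosts the miRNA miR-126, was at 226, 237 and 273 CPM in CTRL, 229.6, 240.1 and 229 CPM at 24H and 218, 184 and 206 CPM at 48H. CTRL replicate 3 was the highest here, and the log2 fold change was -0.28 (SE 0.0693, adjusted p 0.0233). When each library's trend with GC content and transcript length was removed it was -0.105 (SE 0.0632, adjusted p 0.358), so this fall is uncertain. ESM1 (endocan), a tip cell proteoglycan, ranged from 37.1 to 46.2 CPM, and its 48H log2 fold change of -0.18 had an adjusted p of 0.0691.

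In lymphatic and venous fate, PDPN (podoplanin), a mucin-type glycoprotein of lymphatic endothelium and other cells, had the lowest adjusted p of the list. It was at 104, 104 and 91.3 CPM in CTRL, 107, 107 and 106 CPM at 24H and 65.1, 66.2 and 67.0 CPM at 48H. The 48H libraries lay within 2 CPM of each other and far below the rest, at a log2 fold change of -0.59 (SE 0.0494, 0.663-fold, adjusted p 2.02e-05). PDPN was read well although PROX1 and LYVE1 were at or near trace. NR2F2 (COUP-TFII), the venous fate factor, was at 304, 313 and 289 CPM in CTRL, 257, 259.7 and 278 CPM at 24H and 257, 271 and 275 CPM at 48H. Both treated groups lay below all controls by about the same amount, with log2 fold changes of -0.19 (SE 0.0468, adjusted p 0.301) at 24H and -0.17 (SE 0.0468, adjusted p 0.0319) at 48H.

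Promoters of the identity genes were read for 3 short motifs of the factor families above. ERG and ETS2 are ETS factors, and both fell in the main fit. The fall of ERG did not pass in 6 of 16 alternatives. Windows of 250 bases before the annotated start were taken from RefSeq (GRCh38.p14), which gave windows for 25 of the 38 genes. Windows on the chromosome of ANGPT1 and ANGPT2 were not taken for identity genes but stayed in the counts over all genes. The 4 shown belong to fallers that have 1 start in that table and at least 1 match. APLN, with 1 start and 1 match, also meets this rule and is not shown. Capitals mark AGGAAG, a common core of ETS sites, or its reverse complement CTTCCT. PLVAP lies at chr19:17377343-17377592 on the minus strand, ROBO4 at chr11:124897866-124898115 on the minus strand, TIE1 at chr1:43300732-43300981 on the plus strand and MMRN2 at chr10:86957616-86957865 on the minus strand, each given 5′ to 3′ toward the gene.
PLVAP: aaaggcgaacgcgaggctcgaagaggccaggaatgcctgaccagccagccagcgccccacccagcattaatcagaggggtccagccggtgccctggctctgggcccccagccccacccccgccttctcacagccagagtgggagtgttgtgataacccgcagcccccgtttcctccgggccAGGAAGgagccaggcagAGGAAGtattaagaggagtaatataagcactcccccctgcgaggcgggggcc
ROBO4: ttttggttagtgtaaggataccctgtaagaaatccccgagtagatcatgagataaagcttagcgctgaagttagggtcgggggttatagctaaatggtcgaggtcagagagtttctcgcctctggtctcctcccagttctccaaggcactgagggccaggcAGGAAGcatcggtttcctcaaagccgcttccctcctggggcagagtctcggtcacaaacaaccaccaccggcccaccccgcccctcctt
TIE1: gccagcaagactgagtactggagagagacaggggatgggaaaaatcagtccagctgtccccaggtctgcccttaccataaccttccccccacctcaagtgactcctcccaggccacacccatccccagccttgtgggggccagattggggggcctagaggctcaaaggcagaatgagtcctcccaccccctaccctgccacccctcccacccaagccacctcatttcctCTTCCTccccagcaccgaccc
MMRN2: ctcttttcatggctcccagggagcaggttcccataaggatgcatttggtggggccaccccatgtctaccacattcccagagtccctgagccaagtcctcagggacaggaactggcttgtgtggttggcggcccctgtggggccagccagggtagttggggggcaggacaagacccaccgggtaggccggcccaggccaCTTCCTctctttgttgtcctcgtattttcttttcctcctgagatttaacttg

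The PLVAP window held 2 matches and the other 3 held 1 each. By gene, AGGAAG on either strand was in a window of 15 of the 25 identity genes (60.0%), against 32.9% of 27305 genes in the table. Identity genes had more windows each, and by window the shares were 44.4% of 45 and 28.7% of 35116. Of the 14 fallers with a window 9 had a match, and of the 11 other genes 6 did. The 13 identity genes without a window include the fallers PECAM1 and CDH5. Whether matches go with the change was not tested. The motif AGATAA, bound by factors such as GATA2, was in windows of 24.0% of the identity genes against 11.1% of all genes. The E-box CAGCTG, to which TAL1 complexes can bind, was in 28.0% against 16.7%. By window 7 of 45 held the first, against 9.2% of all, and 9 of 45 the second, against 14.0%. None of the 3 motifs shares its full letters with another. A match is a run of letters in a window and is not evidence of binding.

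The direct comparison of 48H with 24H was taken from the same fit over all 9 libraries, in which the controls enter the filter and the estimate of the spread, and it shares the 48H libraries with the comparison above. It gave 14 identity genes that passed, where 7.52% of all genes did, and 18 with only the 24H and 48H libraries in the fit. Of those 18, 15 were lower, where 3.95% of all genes were lower in that fit. Lower at 48H were 11 (3.76% of all genes): ERG, ETS2, TEK, TIE1, PECAM1, ROBO4, APLN, CLEC14A, CAV1, PLVAP and PDPN. Higher at 48H were VWF, MMRN1 and MCAM (3.77% of all genes). Of the 16 genes that fell against CTRL, 10 were also lower against 24H. At 1.4-fold 3 passed, PLVAP and PDPN lower (0.841% of all genes) and VWF higher (0.862%), against 1.70% in either direction. The libraries did not overlap in 17 genes that were lower at 48H, against 13.0%, and in 5 that were higher, against 14.7%.

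PDPN had a log2 fold change of -0.69 between the time-points (SE 0.0495, adjusted p 3.26e-06) and PLVAP one of -1.18 (SE 0.153, adjusted p 0.000321). CAV1 had -0.38 (SE 0.0472, adjusted p 0.000201) and APLN -0.29 (SE 0.0372, adjusted p 0.000296). For these 4 genes the 24H mean was above the control mean, and the 48H libraries were the lowest 3 of 9. TEK, which did not pass against CTRL, had -0.21 between the time-points (SE 0.0498, adjusted p 0.0193). VWF was higher at 48H than at 24H by 0.51 (SE 0.0770, 1.42-fold, adjusted p 0.00112), MMRN1 by 0.46 (SE 0.0795, adjusted p 0.00289) and MCAM by 0.24 (SE 0.0504, adjusted p 0.0106). STAB1, NR2F2 and CDH5 fell against CTRL but did not pass between the time-points, at adjusted p of 0.453, 0.905 and 0.102. Without TMAO 24H replicate 1 the count of 14 was 10 and without replicate 2 of that group 11, and it was 9 without TMAO 24H replicate 3 and 9 without TMAO 48H replicate 2. In these fits the lower identity genes were 7, 9, 6 and 7, against 2.28%, 2.5%, 1.81% and 1.96% of all genes.

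A wider panel of 58 further endothelial genes, also chosen with earlier results of these data known, was read the same way. Of these, 50 were tested, and 8 had too few counts: the selectins SELE and SELP, the arterial connexins GJA4 and GJA5, and CYYR1, PCDH17, TMEM88 and STAB2. At 24H none passed by edgeR. At an unadjusted p under 0.05, 9 were lower, against 4.47% of all genes, and 0 higher, against 2.77%. DESeq2 called 1, which was lower, against 0.421% of all genes. At 48H 20 of the 50 fell, against 5.29% of all genes, and 0 rose, against 5.13%, with a median log2 fold change of -0.155. The 5.29% is not matched for level: it was 7.09% for genes at 10 CPM or more and 10.3% at 100 CPM or more. The 4 with the largest falls were SLCO2A1, a prostaglandin transporter, at -0.80 (adjusted p 1.53e-05), the arterial transcription factor SOX17 at -0.64 (adjusted p 7.95e-05), the VEGF co-receptor NRP1 at -0.62 (adjusted p 1.14e-05) and the scaffold SHANK3 at -0.46 (adjusted p 0.00272). SLCO2A1 went from 37.5, 37.1 and 32.8 CPM in CTRL to 19.6, 21.1 and 21.0 CPM at 48H, and NRP1 from 136, 136 and 122 CPM to 83.7, 87.7 and 85.4 CPM. Neither overlapped. The count of 20 was 10 without CTRL replicate 1, 9 without CTRL replicate 2 and 9 without TMAO 48H replicate 2. In these fits 3.26%, 2.83% and 2.61% of all genes were lower.

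Between 48H and 24H 15 of the 50 were lower, against 3.76% of all genes, and 2 higher, against 3.77%. The largest falls were again NRP1 at -0.70 (adjusted p 2.98e-06) and SLCO2A1 at -0.66 (adjusted p 3.07e-05), followed by the ubiquitin ligase HECW2 at -0.47 (adjusted p 0.0017) and SOX17 at -0.45 (adjusted p 0.000704). The 2 that were higher were the immediate early gene APOLD1 at 0.27 (adjusted p 0.0141) and THSD1, an adhesion regulator, at 0.19 (adjusted p 0.0354). The 17 that passed were 10 without TMAO 24H replicate 1, 11 without replicate 2 and 11 without replicate 3 of that group, and 8 without TMAO 48H replicate 2. In these fits 2.28%, 2.5%, 1.81% and 1.96% of all genes were lower.

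**Figure D4:**
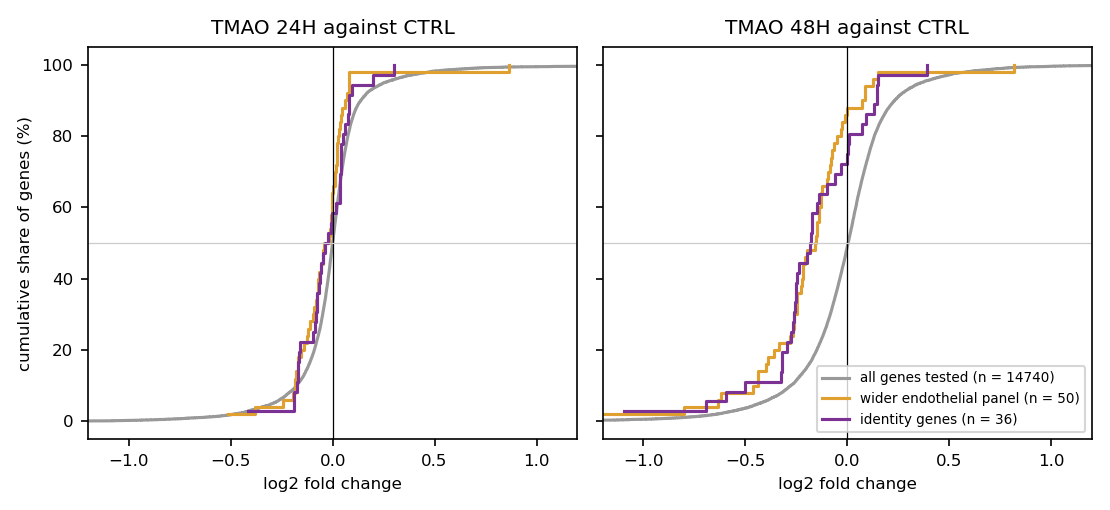
Cumulative share of genes (%) by log2 fold change against CTRL at 24H (left) and 48H (right), for the 36 tested identity genes, the 50 tested genes of the wider panel and all 14740 genes tested. At 24H the 3 curves nearly meet, and at 48H both endothelial curves lie to the left of all genes, with medians of -0.18 and -0.155 against 0.0040.

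Markers of other cell types that HMEC-1 reads moved beside the 48H falls. The fibroblast list, with 6 of 10 genes at 1 CPM or more, summed to 936 to 1093 CPM in CTRL, 947 to 1025 CPM at 24H and 600 to 654 CPM at 48H. Its sum was set by the collagens COL1A1, which went from 715, 694 and 625 CPM to 404, 425 and 446 CPM (log2 fold change -0.67, adjusted p 2.17e-05), and COL1A2, at -1.08 (adjusted p 6e-06). In the rest of the list, COL3A1 averaged 31.3 CPM, THY1 17.4 CPM and PI16 4.18 CPM, and FAP was also above 1 CPM. PDGFRA averaged 0.293 CPM, and DCN, LUM and DPT averaged 0.00818, 0.00425 and 0 CPM. Of the 7 tested genes of that list 4 fell and 1 rose, where 5.29% of all genes fell and 5.13% rose.

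The mural list, with 7 of 10 genes at 1 CPM or more, summed to 260 to 276 CPM in CTRL, 239 to 245 CPM at 24H and 281 to 304 CPM at 48H, led by TAGLN and NOTCH3. At 48H 2 of its 8 tested genes rose, against 5.13% of all genes, and none fell, against 5.29%. TAGLN was at 0.33 (adjusted p 0.00429). The epithelial and keratinocyte list, with 9 of 10 genes at 1 CPM or more, summed to 787 to 855 CPM in CTRL, 742 to 788 CPM at 24H and 639 to 732 CPM at 48H, led by KRT18 and KRT8, simple keratins that many cultured cells also express. KRT18 fell by 0.24 on the log2 scale (adjusted p 0.0131). The basal keratin KRT5, looked at after its values were seen, was at 4.12 CPM in TMAO 48H replicate 3 and at 25.1 to 53.6 CPM in the other 8 libraries. KRT18, KRT8 and TP63 were within the range of the other 8 libraries there, and KRT10 was below it. Without that library 17 identity genes passed at 48H against CTRL, the same 17. Of these, 16 were lower, where 6.09% of all genes were lower in that fit. The part of these lists in the 48H result was not tested.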

How the data were processed

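Total RNA from HMEC-1 was made into libraries with the VAHTS Universal V8 RNA-seq kit and sequenced as paired-end reads. The authors deposited a table of expected counts per gene, that is estimated counts that need not be whole, from the nf-core RNA-seq pipeline. Trim Galore is named in the submitters' processing notes, and the quantifier, genome build and annotation are not given in the sources used here. No gene coordinate is therefore given for the counts.

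The counts were rounded and tested in edgeR 4.0.16 (R 4.3.3) with TMM factors, filterByExpr and the quasi-likelihood test over all 9 libraries, with group as the only term. Of 29740 genes 14740 were tested, and p-values were adjusted over them by Benjamini-Hochberg. A gene passed at an adjusted p under 0.05, and separately with at least 1.4-fold. The common biological coefficient of variation was 0.0744. Totals of 25205756 to 36927373 counts per library set the precision, and 3 counts are worth 0.0869 to 0.115 CPM. Levels per length used the median GENCODE 29 protein-coding transcript of each gene, matched by symbol for 93.8% of tested genes.

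Values per library are given for identity genes that passed in any comparison, for the highest per length and the lowest tested of each role group, and for VWF, PECAM1, CDH5, ERG, TEK, TIE1, CLDN5 and PROX1. From the wider panel up to 4 rises and 4 falls were named, and from each other list its highest 2 genes, with further members given in the text. The members and lists were chosen with earlier results of these data known. Alternatives were DESeq2 1.42.0, RLE factors, other filters, only the groups compared, the older fit, removal of ribosomal RNA genes, a replicate block and leaving out each library. GC and length offsets, a 48H fit without TMAO 24H replicate 1 and the summed ECSCR rows were added after seeing the data. The fits were tested on simulated data. All replicate pairs differed beyond sampling noise.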

Additional observations from a re-analysis of the deposited data

Results flagged for a closer look

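For 14 identity genes the difference between the 48H and the 24H libraries itself passed edgeR's test, so that the 2 time-points differed in their change against the shared controls. In log2 units the differences were -1.18 for PLVAP, -0.69 for PDPN, -0.38 for CAV1, -0.34 for ROBO4, -0.34 for CLEC14A, -0.29 for APLN, -0.22 for PECAM1, -0.22 for TIE1, -0.22 for ETS2, -0.21 for ERG and -0.21 for TEK. They were 0.51 for VWF, 0.46 for MMRN1 and 0.24 for MCAM. The adjusted p ran from 3.26e-06 for PDPN to 0.0426 for PECAM1. In PLVAP, PDPN, CAV1, ROBO4, CLEC14A, APLN, ERG and TEK the fitted change was above 0 at 24H and below 0 at 48H, and in VWF, MCAM and MMRN1 the signs were the other way round, although no 24H change passed by itself.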

How the results depend on the processing

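No identity gene passed at 24H in the main edgeR fit, but 2 did with DESeq2, where 0.421% of all genes were lower. VWF alone passed, as lower, with at least 10 counts in every library, with only the groups compared and with GC and length offsets. In those fits 0.148%, 0.152% and 0.108% of all genes were lower. In the wider panel the 24H count of 0 became 1 with DESeq2, 1 with the filter of 10 counts, and 0 to 2 on leaving out a library. The 2 came without TMAO 24H replicate 3, where 0.0806% of all genes were lower. At 48H the 17 identity genes became 11 to 18, and the 20 of the wider panel 9 to 20, on leaving out a library of the groups compared. The panel count was 22 with TMAO 24H replicate 1 left out of the fit, all lower, where 4.6% of all genes were lower. With GC and length offsets 19 identity genes passed, with ETS1, TEK and MCAM added and EGFL7 lost. Of these, 17 were lower, where 3.95% of all genes were lower in that fit. Between the time-points the 14 identity genes became 9 to 14 and the 17 of the panel 8 to 15. On leaving out a library, 2.61% to 6.09% of all genes were lower at 48H against CTRL. Against 24H the range was 1.81% to 3.84%. The lowest of each range at 48H came without CTRL replicate 2 or TMAO 48H replicate 2. The 2 identity genes that failed the filter became 4 under 10 counts in every library, since ANGPT1 and LYVE1 joined them. Many of these fits held fewer libraries or genes, and the causes of these moves were not tested.

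The labels number the replicates alike in each group, but no pairing by number was seen: deviations of same-numbered libraries correlated at -0.12 to 0.0908 in 9 pairs, and of differently numbered ones at -0.0996 to 0.159 in 18. With only 3 libraries in a group, these correlations cannot exclude a shared batch. With a replicate block the 48H count of 17 was 11, without ERG, PECAM1, CDH5, CD34, EGFL7 and NR2F2 (adjusted p 0.0525 to 0.0945), and the count of 14 between the time-points was 10, without ERG, ETS2, TIE1 and PECAM1. With the block 3.48% and 2.46% of all genes were lower in these comparisons.

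Directions turned only in comparisons where the gene had not passed. On leaving out a library, PECAM1 at 24H ranged from -0.0956 to 0.0202 (0.00604 without CTRL replicate 2), ERG at 24H from -0.00934 to 0.079, and CLDN5 between the time-points from -0.0733 to 0.206. CLDN5 at 48H was 0.00826 with GC and length offsets.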

Other observations

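Genes of epidermal epithelium were read in these libraries, and 1 library differed from the rest. In TMAO 48H replicate 3, KRT5 was at 4.12 CPM against 25.1 to 53.6 CPM in the other 8 libraries, its partner keratin KRT14 at 2.23 CPM against 18.2 to 35.1 CPM, EPCAM at 1.25 CPM against 6.64 to 9.53 CPM, CDH1 (E-cadherin) at 1.13 CPM against 2.78 to 5.13 CPM, and CLDN4 at 3.10 CPM against 8.77 to 12.9 CPM. These 5 genes were singled out of a list of 10 after their values were seen, and no cause was tested. KRT10 was also lower there, at 5.86 CPM against 7.03 to 12.9 CPM. KRT18 at 573 CPM, KRT8 at 46.4 CPM, TP63 at 1.02 CPM and KRT1 at 0 CPM were within the range of the other 8 libraries. Of the 36 identity genes tested, that library was the highest of the 48H group in 18 and the lowest in 10.

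The fibroblast-list gene PI16 fell further than any identity gene at 48H. Its mean was 4.94 ± 0.466 CPM in CTRL, 6.23 ± 0.680 CPM at 24H and 1.35 ± 0.286 CPM at 48H (SD, n = 3), a log2 fold change of -1.88 (SE 0.166, edgeR adjusted p 3.08e-05). The mural-list gene ACTA2 (smooth muscle actin) rose at 48H by 0.74 (adjusted p 0.00194), and THY1 of the fibroblast list by 0.47 (adjusted p 0.00147).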
